A study of Mus musculus with 2 samples.

Results

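The Mir297, Mir466, Mir467 and Mir669 families are rodent microRNA (miRNA) genes, most of them packed into 1 intron of Sfmbt2. The 80 members were taken by gene symbol from 2202 miRNA genes in the count tables, whatever their level: 71 lie inside Sfmbt2 and 9 lie elsewhere in the genome. The families divide into 5 Mir297, 28 Mir466, 17 Mir467 and 30 Mir669 genes. Mir297-1, which carries a number but no letter after the family name, is not covered by the symbol rule. It had no read in either library, so its inclusion would change numbers and shares of genes below but no read count. Short RNA was sequenced from female mice of the strain B6CASTF1/J, an F1 hybrid of C57BL/6J and CAST/EiJ, at an age of 25 days, as biological replicates 1 and 2 of a single group. The tissue is hippocampus, labelled as a layer of it with no layer named, and no treatment is given in the labels. The labels list 2 tissue samples under 1 donor entry, so the spread between the libraries may be in part technical. With 1 group there is no comparison of conditions, and the account is of levels, of sequence, of position and of how far the 2 libraries differ.

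A miRNA gene is transcribed as a longer RNA that folds into a hairpin, from which an enzyme pair cuts a short mature strand. Bases 2 to 8 of that strand, the seed, pair with target mRNAs, and targets are as a rule repressed. Sfmbt2 encodes a Polycomb-group protein and is expressed from the paternal allele in extraembryonic tissue, and the miRNA cluster in its intron is best known from placenta and embryonic stem cells. Many hairpins of these families are near copies of each other and hold long stretches in which U and G, or A and C, alternate.

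Mature sequences from RefSeq (GRCm38.p6, the same assembly as mm10) matched 8 of the 80 members, all 8 outside Sfmbt2. None of the 8 is from a Mir297 gene. The 8 are shown because their alternating bases can be read from them directly, with the seed in capitals.

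miR-466q, chr3:28419988-28420007, plus strand: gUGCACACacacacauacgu
miR-466i-3p, chr13:17747552-17747573, plus strand: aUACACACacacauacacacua
miR-466j, chr10:60960802-60960824, plus strand: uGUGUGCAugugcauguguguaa
miR-466k, chr3:85467396-85467418, plus strand: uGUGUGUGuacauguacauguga
miR-467f, chr11:69635419-69635439, minus strand: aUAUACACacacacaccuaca
miR-467g, chr5:34732872-34732892, minus strand: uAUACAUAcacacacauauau
miR-467h, chr9:115381898-115381919, plus strand: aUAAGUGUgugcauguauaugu
miR-669n, chr3:115979905-115979924, plus strand: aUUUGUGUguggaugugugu

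The 8 sequences carry 8 different seeds, so none of these members shares its seed with another of them. Only the seed of miR-467h occurs in another mature sequence of the table, miR-668-5p. The longest alternating run is 12 bases in miR-466q and miR-467f, and 11 in miR-466i-3p. Over the 8 sequences its median is 9 bases, and 75% of them hold a run of at least 8. Over all 1738 mature mouse sequences of the table the median is 3 bases, and 0.748% hold such a run. In the whole hairpin the longest run has a median of 14 bases (9 to 28) over the 9 members outside Sfmbt2. Over the 71 inside it is shorter, 9 bases (7 to 15), and over all miRNA genes it is 4. The whole mature sequence occurs in a single annotated hairpin for 7 of the 8. The exception is miR-467h, which is also found in Gm25510 and Gm26303. Bases 2 to 18 are a different matter: those of miR-466k occur in 15 hairpins, among them Mir466b-1 to Mir466b-8, Mir466e, Mir466o and Mir466p inside Sfmbt2. Those of miR-466j occur in 17 hairpins, among them Mir297a-2, Mir466f-1, Mir669b and Mir669f. Those of miR-466i-3p occur in 11, among them Mir466f-1, Mir466f-2 and Mir466f-3. For miR-466i-3p, miR-466j and miR-466k a core of the mature strand is thus present, letter for letter, inside the Sfmbt2 cluster. The ninth member outside, Mir466f-4, lies at 71107089 to 71107209 on chromosome 13.

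The cluster inside Sfmbt2 spans 51.6 kb of mm10, from 10466663 to 10518279 on chromosome 2. Its first member is Mir466m and its last is Mir669h. All 71 members lie on the strand of Sfmbt2 and in a single intron of 62472 bases, from 10461473 to 10523944, which is intron 11 of the Sfmbt2 transcript ENSMUST00000116594.8 and intron 10 of ENSMUST00000041105.6. None overlaps an annotated gene other than its host. Neighbouring members are separated by a median of 209 bases, and a Mir467, a Mir466 and a Mir669 gene follow each other directly in this order in 11 places, some of them separated by further members. The 10 copies of Mir467a start a median of 2462 bases apart. The 71 members have 53 distinct hairpin sequences: 9 copies of Mir669a are identical over the whole hairpin, as are 6 copies of Mir467a. Of the 71 hairpins 70 share some run of 22 or more bases, on either strand, with another annotated hairpin, and Mir466g is the exception. Of all 2202 miRNA genes, 1081 (49.1%) share such a run.

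The tables assign 5481053 reads to miRNA genes in replicate 1 and 4266963 in replicate 2. Reads that match several places, 41.9% and 46.4% of the libraries, are held in a row of their own and are in no gene count. The counts of these families are therefore counts of reads placed at 1 locus, and a read that fits several copies is counted for none of them. CPM below are counts per 1000000 counts in gene rows, and they are not divided by hairpin length because a read covers the mature strand and not the hairpin. A gene was called detected at 2 CPM or more in each library, which is about 11.0 counts in replicate 1 and 8.53 in replicate 2. Of 12 listed neuron markers 10 were detected. Mir124a-3, with 4 counts in each library, was under the limit, and Mir124a-1 had 18 and 20 counts. Of 10 measured genes of pluripotent cells and the early embryo none was detected, that is, in both libraries. In replicate 2 alone Mir302a, Mir302b, Mir302c, Mir302d and Mir294 were past 2 CPM, with 18, 29, 9, 42 and 9 counts. Mir291a, Mir291b, Mir293 and Mir295 of the same list were at 0 in both libraries, and the list summed to 0.365 and 25.3 CPM.

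The members together held a low share of the hippocampal reads that were assigned to miRNA genes. Reads that match several places are in no gene count, and many of these hairpins are near copies. The share of the members in all hippocampal miRNA reads is therefore not known. Members inside Sfmbt2 held 9826 counts, or 0.179%, of the first library (exact 95% interval by Clopper-Pearson, 0.176 to 0.183). They held 8432 counts, or 0.198%, of the second (0.193 to 0.202), and the mean was 0.188% ± 0.0130 (SD, n = 2). Intervals cover counting error only. In all, 17 of the 71 had a count in either library and 8 (11.3%) were detected. Of all miRNA genes 37.2% had a count and 19.7% were detected. Among genes that are neither members nor inside Sfmbt2, 956 share a 22-base stretch with another gene. Of these 956, 14.4% had a count and 8.37% were detected, both below the shares of the 71 members. Of the 1118 that share no such stretch, 59.0% had a count and 30.9% were detected. The 43 miRNA genes from Mir379 to Mir410, another large tandem cluster in an imprinted region, had 34 detected (79.1%), and 12 of them share a 22-base stretch with another gene. Every read of the 80 members was on the annotated strand, with 0 counts in the opposite-strand column of either library.

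Nearly all of the members' counts came from a few Mir467 and Mir669 genes. The 8 detected members held 99.9% and 99.6% of the members' counts (replicate 1, replicate 2). The top 3, Mir467d, Mir669c and Mir467e, held 83.6% and 85.0%. By family, Mir467 held 64.6% (63.6 to 65.5) and 70.4% (69.4 to 71.3), and Mir669 held 35.3% (34.4 to 36.3) and 29.2% (28.3 to 30.2). The intervals of the libraries do not overlap for either family. Mir467 and Mir669 hold nearly all of the members' counts, so the share of Mir669 falls where that of Mir467 rises. These intervals cover counting error only, and 68.9% of all tested genes differed between the libraries (adjusted p under 0.05, exact binomial test). The 28 Mir466 genes together held only 9 counts in the first library and 24 in the second. The 5 Mir297 genes held 1 and 9. Detection by family was 3 of 17 for Mir467, 5 of 30 for Mir669, and 0 of 28 and 0 of 5 for Mir466 and Mir297.

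Levels here are of reads placed at 1 locus, so members whose reads fit several copies cannot be ranked by them. By these counts Mir467d (ENSMUSG00000077021.2, 10507630 to 10507714) was the highest member in both libraries. It had 4779 counts (872 CPM) in replicate 1 and 4226 counts (990 CPM) in replicate 2, or 931 ± 83.8 CPM (SD, n = 2). It ranked 113 and 111 among the 2202 miRNA genes and held 48.6% (47.6 to 49.6) and 50.1% (49.0 to 51.1) of the members' counts, close to an even split with all others together. Mir467e (10505721 to 10505807), its neighbour in the Mir467 series, had 1278 and 1457 counts, or 233 and 341 CPM (287 ± 76.6). Mir467c (10473931 to 10474027), at the other side of the cluster, had 286 and 256 counts, with a mean of 56.1 ± 5.53 CPM (SD, n = 2). The hairpins of Mir467d and Mir467e are 92.0% identical in a global alignment, and Mir467c is 83.5% identical to Mir467d and shares a run of 48 bases with Mir467e. The ratio of Mir467d to Mir467c was alike in both libraries, 16.7 (14.8 to 18.9) and 16.5 (14.5 to 18.8). The ratio of Mir467d to Mir467e was 3.74 (3.51 to 3.98) in replicate 1 and 2.90 (2.73 to 3.08) in replicate 2, intervals that do not overlap.

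Among the Mir669 genes Mir669c (10509296 to 10509404) had the most reads placed at 1 locus, with 2162 and 1489 counts, or 394 and 349 CPM (372 ± 32.2). Mir669o (10514300 to 10514395) followed with 964 and 622 counts, or 176 and 146 CPM (161 ± 21.3). The hairpins of these 2 are 73.9% identical, and their ratio was 2.24 (2.08 to 2.42) and 2.39 (2.18 to 2.63), with overlapping intervals. Both were lower in replicate 2 while Mir467e was higher. The ratio of Mir669c to Mir467e, which no scaling of the libraries can change, therefore moved from 1.69 (1.58 to 1.81) to 1.02, with an interval that reaches 1.10 and includes 1.

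The other detected Mir669 genes were far lower. Mir669l (10468971 to 10469068) had 255 and 281 counts, or 46.5 and 65.9 CPM (56.2 ± 13.7). Mir669e (10467495 to 10467613) had 61 counts in each library, or 11.1 and 14.3 CPM (12.7 ± 2.24). Mir669h (10518155 to 10518279) had 27 and 11 counts, or 4.93 and 2.58 CPM (3.75 ± 1.66), and is the detected member nearest to the limit of 2 CPM. The order of levels was Mir467d, Mir669c, Mir467e, Mir669o, then Mir669l and Mir467c, then Mir669e and Mir669h. In both libraries Mir467c and Mir669l differed by less than counting error, and in replicate 2 so did Mir669c and Mir467e.

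**Figure D1:**
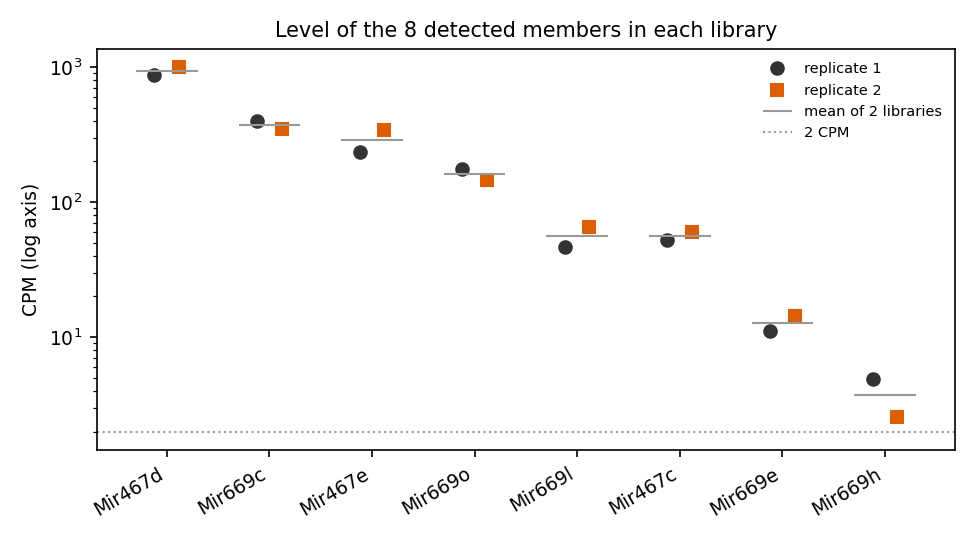
CPM on a log axis of the 8 detected members, a circle for replicate 1, a square for replicate 2, a line for their mean and a dotted line at 2 CPM. The members run from 931 mean CPM for Mir467d to 3.75 for Mir669h, and each member's libraries lie close together beside that range.

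The assigned counts of the Mir466 and Mir297 families and of the members outside Sfmbt2 were at or near 0. Mir466n, the highest Mir466 gene inside Sfmbt2, had 7 and 12 counts, or 1.28 and 2.81 CPM, and missed the limit in replicate 1. Mir297a-2, the highest Mir297 gene, had 0 counts in replicate 1 and 9 in replicate 2. Outside Sfmbt2 a single member had any read: Mir466q, in an intron of Tnik on the strand of that gene, had 0 and 7 counts. The other 8 outside had no count. Among them Mir466i in Cdk13, Mir466k in Gm37240, Mir467f in Fxr2, Mir467g in Grk4 and Mir669n in Slc30a7 lie in introns on the strand opposite to the gene, and Mir466j, Mir467h and Mir466f-4 lie in no annotated host gene. For a member with no read, levels up to 0.547 CPM (replicate 1) and 0.703 CPM (replicate 2), the value of 3 counts, remain possible, and reads that match several places are not in this limit. The other miRNA genes inside Sfmbt2, 48 entries without a family name, had 9 counts in all and none was detected. Those with a read were Gm22072 (1 and 0), Gm24761 (2 and 0), Gm22925 (1 in each library) and Gm24806 (0 and 4).

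Counts were unevenly spread along the cluster, in the same places in both libraries. The 13 members from Mir466m to Mir467c held 605 and 613 counts. The 38 members between Mir467c and Mir467e, over 31.7 kb, held 1 count in replicate 1, in Mir467a-1, and 0 in replicate 2. The 20 members from Mir467e to Mir669h held 9220 and 7819 counts, which is 93.8% and 92.7% of the members' counts. Mir467c and Mir467e were chosen as boundaries after the values were seen, so the division is a description. The middle stretch holds the identical copies of Mir467a, Mir669a and Mir466b. Of its 38 hairpins 31 have no 22-base window that occurs once among all annotated miRNA hairpins, against 0 of 13 before it and 1 of 20 after it.

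**Figure D2:**
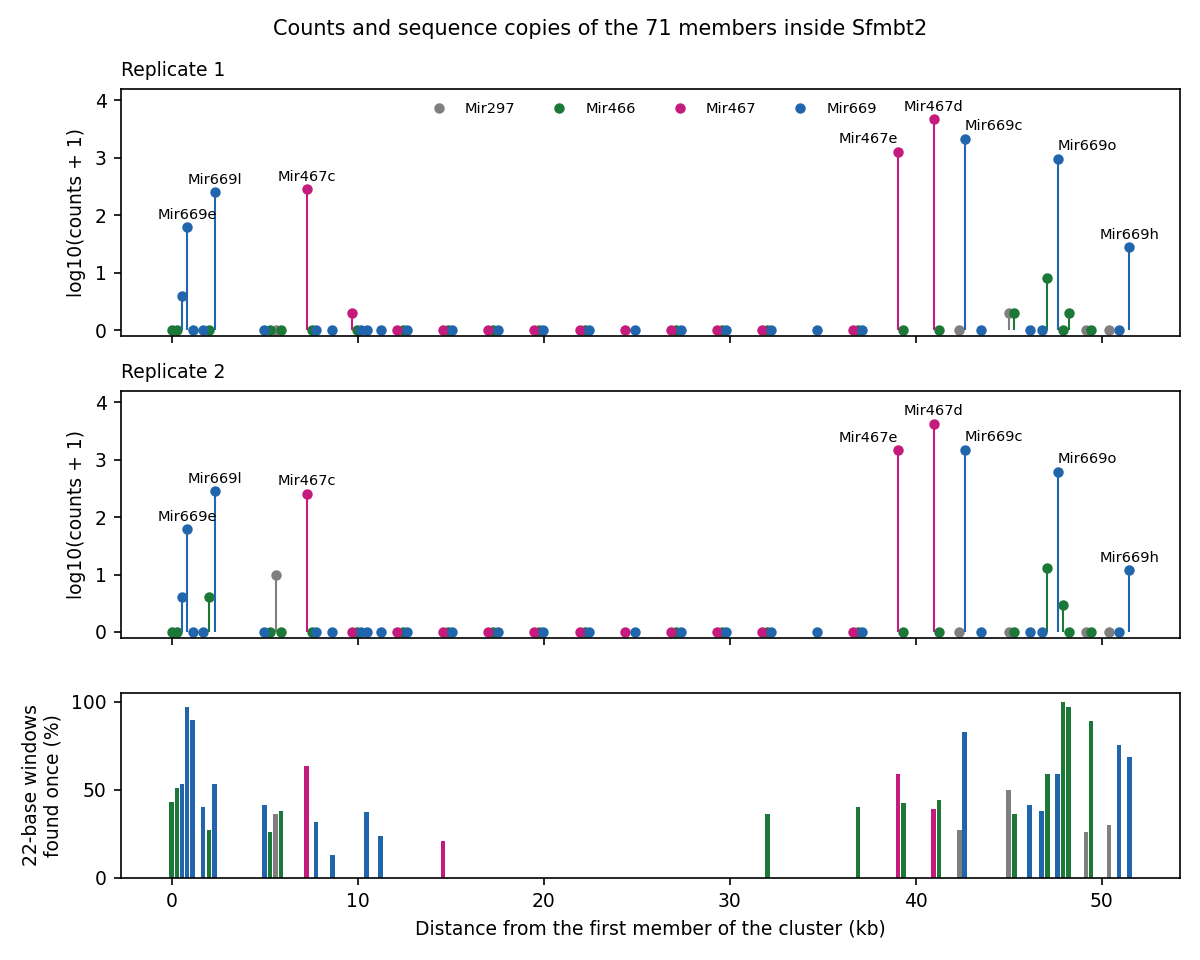
The upper panels show log10(counts + 1) of each of the 71 members against the distance in kb from the first one, for replicate 1 and replicate 2, coloured by family. The lower panel shows the percent of each hairpin's 22-base windows found once among all annotated miRNA hairpins. Counts stand at both ends, and the middle 31.7 kb, where bars are mostly missing, holds 1 count.

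The share of windows found once, counted on both strands of all 2202 annotated hairpins, describes how much sequence of its own a hairpin has. Its median over the 71 members was 25.9%, and over all miRNA genes 100%. Of the 32 members with no such window 1 had a count, and none was detected. Of all 2202 miRNA genes 334 had no such window and 17 of these were detected, where 19.7% of all genes were. Of the 24 members with some such windows, up to 50%, 5 had a count and 1, Mir467d, was detected. Of the 15 with more than 50%, 11 had a count and 7 were detected. Among the detected members the share ran from 39.1% in Mir467d and 53.2% in Mir669l to 83.0% in Mir669c and 96.9% in Mir669e, with Mir467e at 59.1%, Mir669o at 58.7%, Mir467c at 63.2% and Mir669h at 68.3%. The member with the highest count thus had the lowest share of the 8. Sequence of its own did not go with reads in every member: Mir466g, at 100%, had 2 counts in all, and Mir466h, at 96.7%, had 1. Mir669b (89.5%), Mir466l (89.0%) and Mir669i (75.5%) had none in either library. These 5 were chosen after their values were seen. The windows were compared with annotated hairpins alone, so a window found once can still occur elsewhere in the genome.

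**Figure D3:**
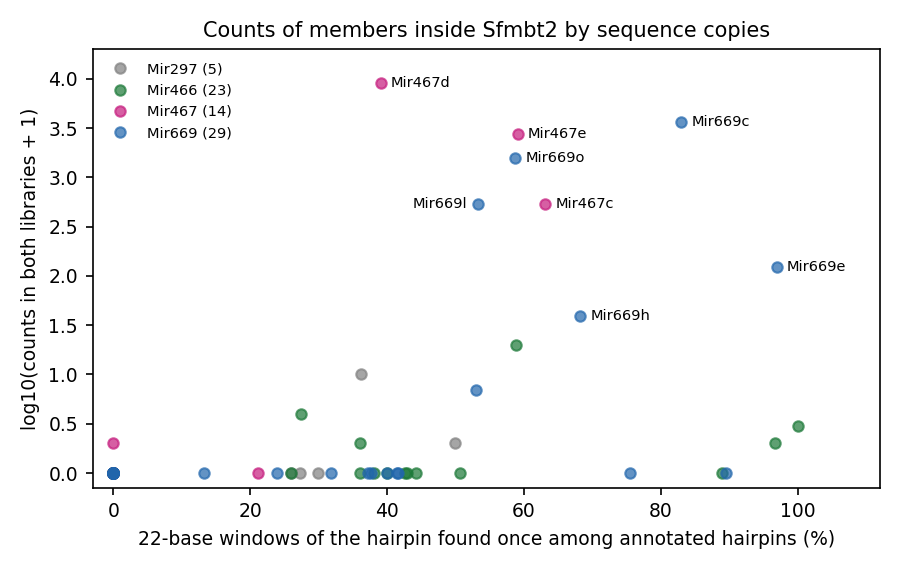
Each point is a member inside Sfmbt2, with the percent of its 22-base windows found once on the horizontal axis and log10(counts in both libraries + 1) on the vertical axis. Points at 0% lie over each other: 31 of 32 members there have no count. Mir467d stands highest at 39.1%.

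The libraries were then compared gene by gene with a two-sided exact binomial test on the counts, given the library totals, with Benjamini-Hochberg adjustment over all 579 genes with at least 10 counts in sum. The test compares these libraries and not conditions. Of all genes tested, 68.9% passed at an adjusted p under 0.05, 42.0% higher in replicate 2 and 26.9% lower, and 55.8% passed and differed by at least 1.5-fold. Of the members, 9 were tested and 5 passed, 3 higher in replicate 2 and 2 lower, a share no larger than that of all genes. With library totals none of the 9 passed with at least 1.5-fold; with the other scalings below 2 did. The median absolute log2 ratio, computed from CPM + 1, was 0.33 over the 9 tested members and 0.85 over all 579 genes. For the 220 detected genes with a mean CPM of 10 to 1000 it was 0.95. The 9 lie in 1 intron and share sequence, so they are not independent of each other.

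With library totals Mir467e had the largest difference among those that passed, 1.46-fold higher in replicate 2 (95% interval 1.36 to 1.58, adjusted p = 6.72e-23, exact binomial test). Mir669l was 1.42-fold higher (1.19 to 1.68, adjusted p = 1.12e-04, exact binomial test), and Mir467d 1.14-fold higher (1.09 to 1.18, adjusted p = 3.77e-09, exact binomial test). Mir669c was 1.13-fold lower (1.06 to 1.21, adjusted p = 4.97e-04, exact binomial test) and Mir669o 1.21-fold lower (1.09 to 1.34, adjusted p = 4.81e-04, exact binomial test). Mir467c, Mir669e, Mir669h and Mir466n did not pass. Mir466n and Mir669h had the largest absolute log2 ratios of the tested members, on 19 and 38 counts. These were 0.74 and -0.73 from CPM + 1, and 1.14 and -0.934 from CPM with nothing added. The directions of the members that passed depend on the scaling. The edgeR TMM factors and the DESeq2 size factors each lower every log2 ratio of CPM, with nothing added, by 0.36. With either, 5 members also passed but 1 was higher and 4 lower. Over all genes 67.4% passed with TMM, 31.8% higher and 35.6% lower, and 66.3% with DESeq2, 30.9% higher and 35.4% lower. Mir467d turned lower (log2 ratio -0.18 with each, against 0.18), Mir669l no longer passed, and Mir669h passed as lower. Mir669h and Mir669o were then past 1.5-fold, with ratios of 0.408 and 0.646 under TMM and 0.407 and 0.645 under DESeq2, as were 54.7% and 53.9% of all genes. Mir467e, at 1.14 under both, was then no longer the largest difference. With counts without strand 5 of 9 members passed, against 66.8% of all genes, and with a minimum of 1 count 7 of 18, against 50.1%. Mir467e was higher and Mir669c and Mir669o lower under all 3 scalings.

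**Figure D4:**
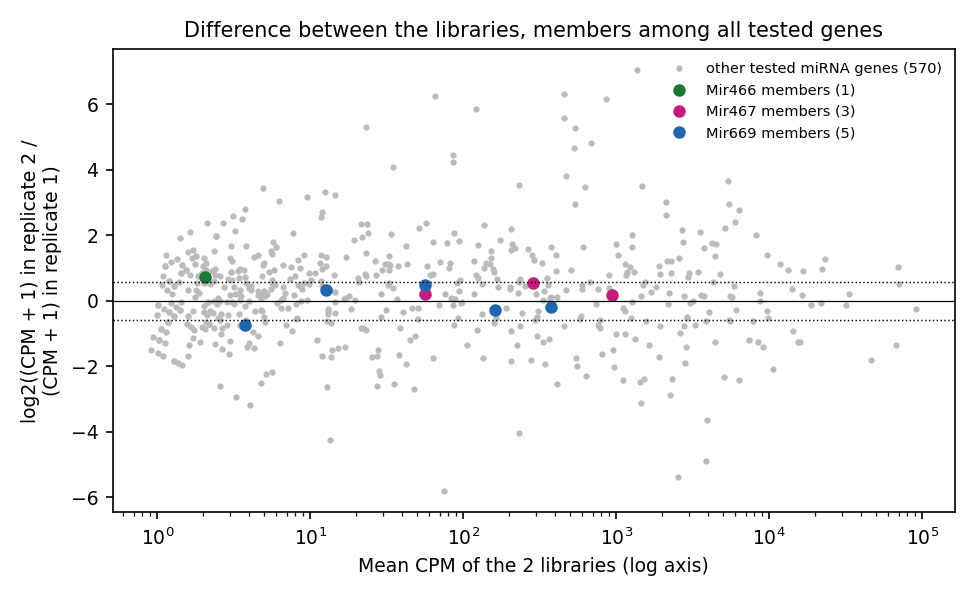
The log2 ratio of CPM + 1 in replicate 2 over replicate 1 is plotted against mean CPM on a log axis for the 579 tested genes, members coloured by family and other genes grey, with dotted lines at 1.5-fold. The members lie between -0.73 and 0.74, whereas other genes reach 7.04 in absolute value.

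Marker lists of other cell types differed between the same libraries. The 7 epithelial genes summed to 111 CPM in replicate 1 and 6267 in replicate 2, and the 3 genes of the sensory Mir183 cluster to 28.3 and 1839. The 10 genes of pluripotent cells and the early embryo summed to 0.365 and 25.3. The 3 oligodendrocyte genes summed to 6503 and 939 CPM, and the 12 neuron genes to 59403 and 82795. The 3 endothelial and mural genes summed to 21958 and 12895, the 7 microglia and blood genes to 2053 and 1122, and the 6 choroid plexus and ciliated genes to 982 and 2304. Not every gene moved with the sum of its list. Of the neuron list Mir132, Mir138-1, Mir138-2, Mir218-1 and Mir218-2 were lower in replicate 2, with log2 ratios of CPM + 1 from -2.09 to -1.26. Of the oligodendrocyte list Mir219a-1 rose from 68 to 234 counts. Of the microglia and blood list Mir155 rose from 206 to 337 counts and Mir223 from 51 to 107. The part of such differences in the small shifts among Mir467 and Mir669 genes was not tested, and in whole tissue fewer cells of a type and less RNA per cell cannot be told apart.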

How the data were processed

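Short RNA libraries of 2 hippocampus samples were analysed. Each library has a deposited table of raw counts, in whole reads, for every miRNA gene. Per the deposited text beside the tables, reads were placed on mm10 and counted over GENCODE M21. Aligner and trimming: not given in the sources used here. The 3 value columns are unnamed and were read as counts without strand, on the gene's strand and on the opposite strand. The second, which holds nearly all gene reads, was used. The 4 rows that name no gene stayed out of totals. Members are symbols Mir297, Mir466, Mir467 or Mir669, alone or with a letter, optional digits and an optional hyphen and number. They, the lists and the tests were chosen with earlier results of these data known. Named are the detected members, the highest of each family inside Sfmbt2 and elsewhere, the 3 with the largest ratio between libraries, the first and last of the cluster, and other miRNA genes of Sfmbt2 with a read. Hairpins came from GENCODE M21 transcripts and mature strands from RefSeq. Tests used scipy 1.17.1. The test between libraries was checked on simulated counts with counting error only. That check does not show how the test behaves where libraries differ more widely, as these do. The window count was checked on made sequences. Scaling alternatives used edgeR 4.0.16 and DESeq2 1.42.0.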

Additional observations from a re-analysis of the deposited data

How the results depend on the processing

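The number of detected members inside Sfmbt2 was 7 at 10 CPM, 9 at 1 CPM, 10 with at least 1 count in each library, 8 from replicate 1 alone and 10 from replicate 2 alone; outside Sfmbt2 it was 0 under each of these. With counts without strand the share of counts inside Sfmbt2 was 0.202%, and as a share of all reads in the tables it was 0.0626%; the members' counts were the same in both columns, and the totals differ. Of 9 tested members, 5 differed between the libraries with TMM, DESeq2 size factors and counts without strand, where 67.4%, 66.3% and 66.8% of all genes did. With a minimum of 1 count 7 of 18 did, against 50.1% of all genes. With a 1.5-fold minimum 0 of 9 did with library totals (55.8% of all genes), 2 with TMM (54.7%) and 2 with DESeq2 (53.9%), the last pair chosen after seeing the data. The log2 ratio of Mir467d turned from 0.18 to -0.18 with TMM (-0.175) and with DESeq2 (-0.177), and that of Mir467c, which passed under none of these, from 0.20 to -0.158 and -0.16. The levels of the 8 detected members stayed within 1 SD of the reported mean with TMM and with counts without strand (with 2 libraries, leaving one out stays within 1 SD by construction). Of the 8 RefSeq mature strands, 7 occur in 1 hairpin as a whole, 2 by bases 2 to 18, and 1 belongs to a hairpin with no shared 22-base stretch. With windows of 18, 20 and 24 bases, chosen after seeing the data, 5, 7 and 7 of the detected members had at least 50% of windows found once, against 7 with 22. No paired analysis was possible because the labels give 1 group. Low counts limit Mir466, Mir297 and Mir669h, and reads that match several places limit every copied member.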
